A study of Mus musculus with 6 samples.

Results

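The tubulin genes followed here were the alpha tubulin genes Tuba1a, Tuba1b, Tuba1c and Tuba4a, and the beta tubulin genes Tubb2a, Tubb2b, Tubb3, Tubb4b, Tubb5 and Tubb6. They were taken by gene symbol and make up 10 of the 22298 genes in the deposited table (4 alpha and 6 beta). The study sequenced lens RNA of newborn C57BL/6 mice (postnatal day 0), either wild-type (WT) or Fyco1-/- by label. Each genotype has 3 libraries, lettered A, B and C, and each library is a pool of 10 lenses, so that p-values measure the spread between pools. The kind of Fyco1 allele and the sex of the mice are not given in the sources used here, and no treatment is named. Every level is an FPKM, a fragment count scaled to gene length and to a library total that is not specified. Levels of different genes can thus be compared, except as far as genes share sequence. Values of the libraries of a genotype are given in the order A, B, C.

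Alpha and beta tubulin form the heterodimer from which microtubules are assembled. Each is encoded by several genes whose products, called isotypes, are nearly identical in their globular body and differ most in an acidic tail at the carboxyl end, where many modifying enzymes and microtubule-binding proteins act. Cells also adjust tubulin output after transcription, because free tubulin triggers the decay of tubulin mRNA on the ribosome. In the lens, microtubules run along the length of elongating fibre cells, and Fyco1 encodes an adaptor that couples autophagosomes to kinesin motors moving on microtubules.

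The tail-coding ends of 4 beta genes, among them Tubb5 and Tubb2a, which went in opposite directions, show how far isotypes can be told apart by sequence. Each line gives the last 60 coding bases, stop codon included, read 5′ to 3′ from GENCODE release M21 (GRCm38). Capitals mark bases that differ from Tubb5 in the alignment or that Tubb5 lacks, and Tubb5 itself is in lower case throughout.
Tubb5 (chr17:35834982-35835041, minus strand): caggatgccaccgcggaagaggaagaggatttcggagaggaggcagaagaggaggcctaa
Tubb2a (chr13:34074468-34074527, minus strand): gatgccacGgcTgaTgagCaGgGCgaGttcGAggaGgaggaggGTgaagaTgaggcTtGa
Tubb2b (chr13:34127471-34127530, minus strand): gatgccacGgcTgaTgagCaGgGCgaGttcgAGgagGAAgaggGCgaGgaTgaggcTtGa
Tubb4b (chr2:25222308-25222367, minus strand): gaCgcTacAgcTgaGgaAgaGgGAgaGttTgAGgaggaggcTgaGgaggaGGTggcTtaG
In this stretch, against Tubb5, Tubb2a differed at 16 bases, Tubb2b at 19 and Tubb4b at 20. These counts include inserted bases, because the coding sequence of Tubb5 is shorter than those of the other 3 (1335 against 1338 bases). They also depend on where the alignment places the gap. Over the whole coding sequence, Tuba1a and Tuba1b were 98.3% identical, Tuba1a and Tuba1c 97.6%, and Tuba1b and Tuba1c 98.4%. Tuba4a was only 85.3% to 85.6% identical to those 3. Tubb2a and Tubb2b were 96.5% identical, whereas all other pairs of beta genes lay between 80.7% and 86.5%.

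Fyco1 itself (ENSMUSG00000025241, GRCm38 chromosome 9) measured 5.40, 5.21 and 5.11 FPKM in the WT libraries and 4.61, 4.59 and 4.87 FPKM in the Fyco1-/- ones. The Fyco1-/- values all lay below the WT values, without a call (log2 fold change -0.15, SE 0.08, limma adjusted p = 0.273). The gene-level value covers the whole locus and does not settle the genotype of the libraries. Depths of 17.1 to 20.1 M reads were estimated from steps worth 1 read among small FPKM values, on which only 51.1% of such values fell (within 0.05 of a whole read). Crystallin transcripts took 70.2% to 71.7% of all FPKM. Markers of lens fibres summed to between 232507 and 244476 FPKM per library, and markers of retina and other neurons to between 1.94 and 3.15 FPKM.

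Tubulin expression in the newborn lens was dominated by 1 alpha gene, and the isotypes moved in different directions between the genotypes. Tuba1c, at about 1 FPKM in WT, rose 9.22-fold in Fyco1-/- lenses, and Tubb2a rose 1.19-fold. Tuba1b fell 1.49-fold, Tubb5 1.24-fold and Tuba1a, the most abundant, 1.17-fold. Tuba4a, Tubb2b, Tubb3, Tubb4b and Tubb6 were not called. Of the 10 genes, all of which passed the filter of a mean of 0.5 FPKM, 5 were called, 2 higher and 3 lower (limma on log2(FPKM + 0.5), Benjamini-Hochberg adjusted p under 0.05 over 12001 genes). Over all genes tested, 8.43% were called, 3.42% higher and 5.02% lower. The 3 values of 1 genotype lay entirely above those of the other for 7 of the 10 genes, as for 29.7% of all tested genes. The median log2 fold change of the 10 was -0.15, beside -0.04 over all genes tested. Because whole lenses were sequenced, fewer cells of a type and less RNA per cell cannot be told apart.

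**Figure D1:**
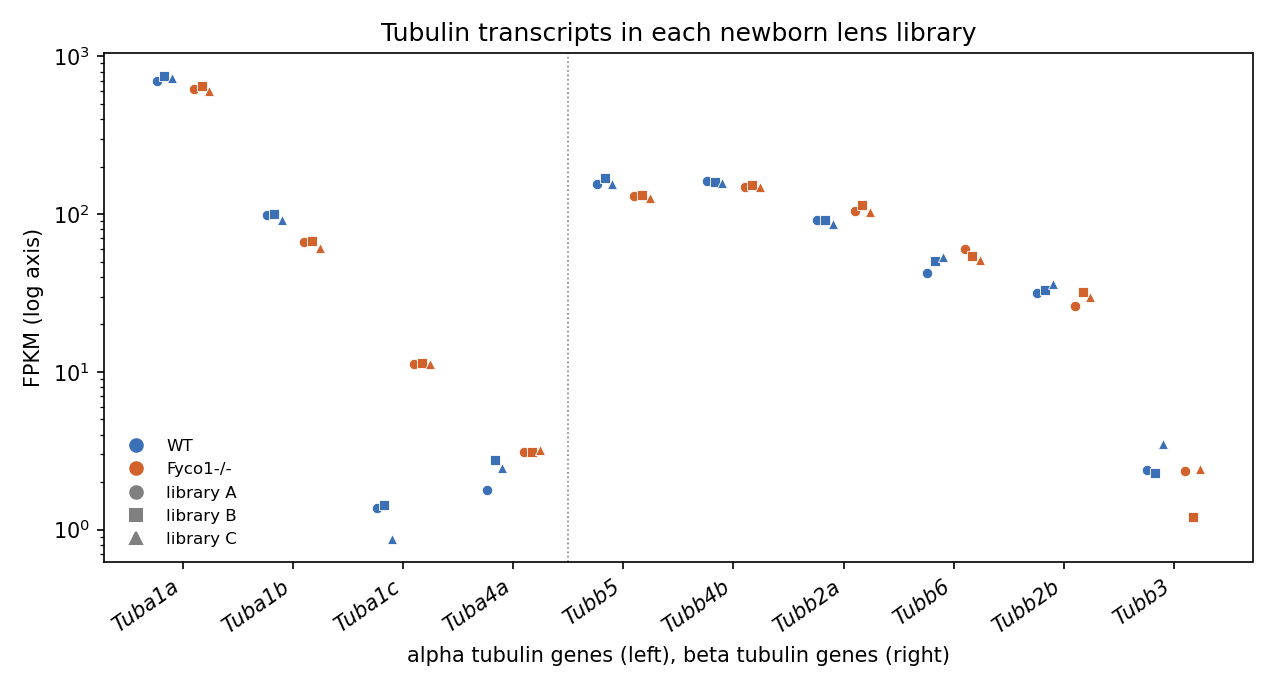
FPKM of each tubulin gene in every library on a log axis, alpha genes to the left and beta genes to the right of the dotted line, with WT in blue and Fyco1-/- in orange and a symbol for each library letter. Tuba1a lies above all others at 598 to 748 FPKM, and Tuba1c shows the widest gap between genotypes, from 0.871 to 1.44 FPKM in WT to 11.2 to 11.3 FPKM in Fyco1-/-.

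The alpha genes Tuba1b, Tuba1a and Tuba1c lie in a row on chromosome 15. Tuba1a (ENSMUSG00000072235, GRCm38 chromosome 15, 98949837 to 98953703, minus strand), the main alpha isotype of young neurons and of many developing tissues, measured 698, 748 and 727 FPKM in the WT libraries and 616, 649 and 598 FPKM in the Fyco1-/- ones. Every Fyco1-/- library was below every WT library. The mean fell from 724 ± 25.0 to 621 ± 25.7 FPKM (SD, n = 3; so for all means below), a log2 fold change of -0.22 (SE 0.04, 95% interval -0.31 to -0.14, limma adjusted p = 0.00662). With median-of-ratios scaling, which sets the median of all genes near 0, the Tuba1a value was -0.18 and its call was lost (adjusted p = 0.0611).

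Tuba1b (ENSMUSG00000023004, chromosome 15, 98931425 to 98934565, minus strand), an alpha isotype made by most cell types, measured 97.9, 100.4 and 92.0 FPKM in the WT libraries and 66.6, 67.5 and 61.3 FPKM in the Fyco1-/- ones. The groups were well apart, with 92.0 FPKM as the lowest WT value and 67.5 FPKM as the highest Fyco1-/- value. The mean fell from 96.8 ± 4.31 to 65.1 ± 3.35 FPKM (log2 -0.57, SE 0.05, limma adjusted p = 0.000141). Across the 16 alternative settings tried, the Tuba1b log2 fold change ran from -0.61 to -0.52 and the call was kept in all of them.

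Tuba1c (ENSMUSG00000043091, chromosome 15, 99029891 to 99038110, plus strand), another isotype of the same cluster, measured 1.36, 1.44 and 0.871 FPKM in the 3 WT libraries. It measured 11.2, 11.3 and 11.3 FPKM in the Fyco1-/- ones. The genotypes were far apart and the Fyco1-/- libraries nearly equal. The mean rose from 1.22 ± 0.307 to 11.3 ± 0.0255 FPKM (log2 2.79, SE 0.13, 95% interval 2.51 to 3.07, limma adjusted p = 1.33e-06). Among the 12001 genes tested it ranked 7 by p and 13 by size among positive log2 fold changes. At the estimated depth these levels stand for 35 to 66 reads in WT and 484 to 504 reads in Fyco1-/- libraries. The call was kept in all 16 alternative settings, with log2 fold changes of 2.47 to 3.13. Even so, the rise of 10.1 FPKM in Tuba1c was small beside the falls of 103 FPKM in Tuba1a and 31.6 FPKM in Tuba1b.

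Tuba4a (ENSMUSG00000026202, chromosome 1, 75214228 to 75219865, minus strand), an alpha isotype with a tail unlike that of the chromosome 15 genes and known for high levels in muscle, brain and platelets, measured 1.77, 2.75 and 2.45 FPKM in the WT libraries and 3.10, 3.10 and 3.20 FPKM in the Fyco1-/- ones. The groups did not overlap. The difference was not called (log2 0.38, SE 0.13, limma adjusted p = 0.110). Tuba4a shares exon sequence at its 3′ end with Stk16 on the opposite strand, and whether counting used strand is not given in the sources used here, so reads of the pair cannot be told apart. Stk16, which encodes a kinase, was not called (log2 -0.08, adjusted p = 0.667).

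Of the beta genes, Tubb5 (ENSMUSG00000001525, chromosome 17, 35833921 to 35838306, minus strand), a broadly expressed isotype needed by dividing progenitors, measured 156, 169 and 156 FPKM in the WT libraries and 130.1, 131 and 127 FPKM in the Fyco1-/- ones. All Fyco1-/- values lay below those of WT. The mean fell from 160.2 ± 7.69 to 129 ± 2.27 FPKM (log2 -0.31, SE 0.04, limma adjusted p = 0.00168), and the call was kept in all 16 alternative settings. None of the 100-base windows of its transcript occurs in a transcript of another GENCODE gene.

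Tubb4b (ENSMUSG00000036752, chromosome 2, 25222160 to 25224702, minus strand), an isotype of most tissues and of cilia, measured 161, 159 and 158 FPKM in the WT libraries and 147, 152 and 147 FPKM in the Fyco1-/- ones. Again no values overlapped, but the difference was small and not called (log2 -0.10, SE 0.03, limma adjusted p = 0.107). With quantile normalization it was called lower (log2 -0.13, adjusted p = 0.0309). In WT the levels of Tubb4b lay within the range of Tubb5, and in Fyco1-/- all Tubb4b values lay above those of Tubb5.

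Tubb2a (ENSMUSG00000058672, chromosome 13, 34074274 to 34078007, minus strand) and Tubb2b (ENSMUSG00000045136, chromosome 13, 34126748 to 34130466, minus strand) are neighbouring copies best known from developing neurons. Tubb2a measured 91.4, 91.5 and 86.6 FPKM in the WT libraries and 104, 114 and 102 FPKM in the Fyco1-/- ones. Its Fyco1-/- values were all above those of WT, and the mean rose from 89.8 ± 2.77 to 106.7 ± 6.31 FPKM (log2 0.25, SE 0.05, limma adjusted p = 0.0127). That call was kept in all 16 alternative settings, with adjusted p of up to 0.0468. Tubb2b measured 31.8, 33.1 and 36.1 FPKM in the WT libraries and 26.1, 32.0 and 29.9 FPKM in the Fyco1-/- ones. Its groups overlapped and it was not called (log2 -0.20, SE 0.08, adjusted p = 0.151). Whether the differences of the 2 copies differ from each other was not tested.

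Tubb6 (ENSMUSG00000001473, chromosome 18, 67390717 to 67402749, plus strand), a divergent beta isotype, measured 42.4, 50.2 and 53.4 FPKM in the WT libraries and 59.9, 54.1 and 51.4 FPKM in the Fyco1-/- ones. The groups overlapped and the difference was not called (log2 0.18, SE 0.09, limma adjusted p = 0.247). Tubb3 (ENSMUSG00000062380, chromosome 8, 123411424 to 123422015, plus strand), the isotype used as a marker of neurons, measured 2.38, 2.29 and 3.50 FPKM in the WT libraries and 2.36, 1.21 and 2.42 FPKM in the Fyco1-/- ones. These values also overlapped, with no call (log2 -0.39, SE 0.22, 95% interval -0.90 to 0.12, adjusted p = 0.329). At the estimated depth Tubb3 rests on 44 to 114 reads per library.

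**Figure D2:**
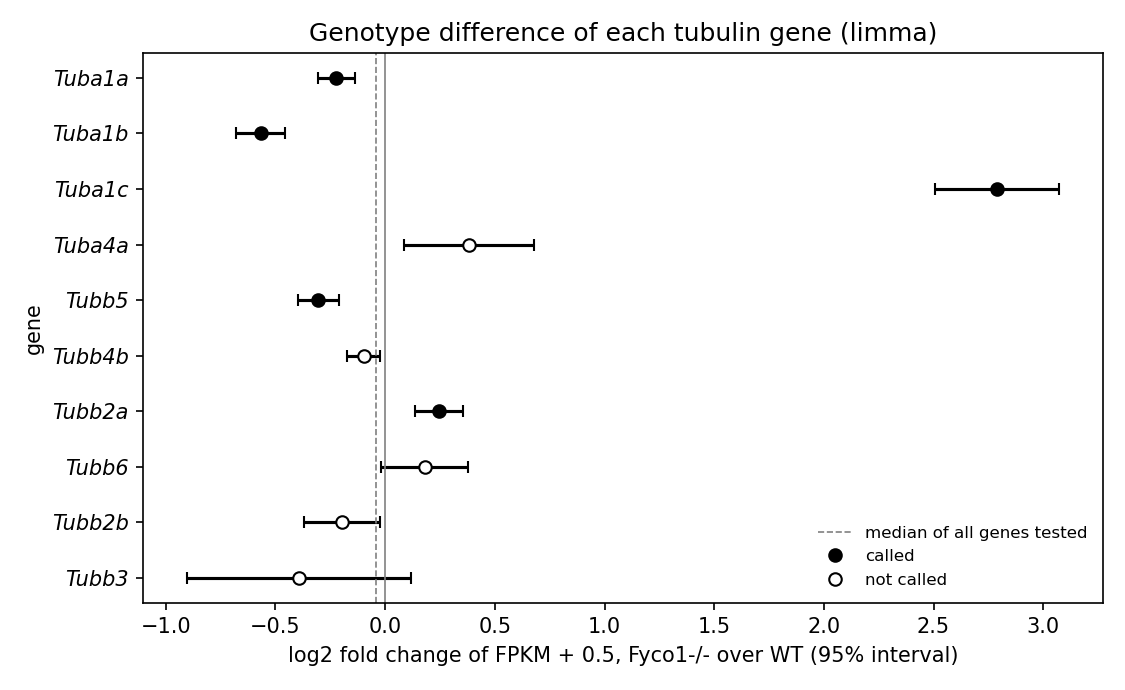
Log2 fold change of FPKM + 0.5 in Fyco1-/- over WT for each tubulin gene, with unadjusted 95% intervals from limma, filled where called and open where not, and a dashed line at the median of all tested genes (-0.04). Tuba1c stands at 2.79, while the other 9 genes lie between -0.57 and 0.38.

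The authors' deposited table of comparisons, made with a count model, gave the same 5 genes an adjusted p under 0.05 in the same directions. Of all genes with an adjusted p in the authors' deposited table, 9.37% passed that threshold, 5.22% higher and 4.15% lower. Its log2 fold changes were 2.53 for Tuba1c (adjusted p = 5.2e-76), 0.29 for Tubb2a (adjusted p = 2.46e-06) and -0.51 for Tuba1b (adjusted p = 1.86e-20). The authors' deposited table gave -0.25 for Tubb5 (adjusted p = 7.45e-07) and -0.17 for Tuba1a (adjusted p = 0.00268). The other 5 genes had adjusted p of 0.0864 (Tubb6) to 0.648 (Tubb4b) in the authors' deposited table. Both analyses start from the same libraries, so they are not independent.

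The order of levels shifted in the middle of the range. In WT, Tuba1a led, Tubb5 and Tubb4b followed with overlapping values, and then came Tuba1b, Tubb2a, Tubb6 and Tubb2b, each apart from the next in every library. Tubb3 and Tuba4a overlapped at the bottom of that order, above Tuba1c, which was the lowest. In Fyco1-/- lenses the order was Tuba1a, Tubb4b, Tubb5, Tubb2a, Tuba1b, Tubb6, Tubb2b, Tuba1c, Tuba4a and Tubb3, and no neighbours in it overlapped. Tubb2a thus stood below Tuba1b in WT and above it in Fyco1-/-, and Tuba1c passed Tuba4a and Tubb3. The WT gap was narrow, with 92.0 FPKM as the lowest value of Tuba1b and 91.5 FPKM as the highest of Tubb2a. These orders rest on FPKM as given, without allowance for sequence shared with other genes. Of the 100-base windows, 73.0% were shared for Tuba1b and 36.9% for Tubb2a, so the true order of the 2 is uncertain.

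As shares of the 4 alpha genes, Tuba1a held 87.8% ± 0.536 in WT and 88.6% ± 0.231 in Fyco1-/-, with overlapping libraries (exact permutation p = 0.2, two-sided). Tuba1b held 12.3%, 11.8% and 11.2% in the WT libraries and 9.56%, 9.23% and 9.09% in the Fyco1-/- ones, a difference in mean share of -2.44 percentage points. Tuba1c went from 0.148% ± 0.0366 to 1.61% ± 0.0642 and Tuba4a from 0.281% ± 0.0527 to 0.448% ± 0.0256 of the alpha total. The shares of Tuba1b, Tuba1c and Tuba4a did not overlap between genotypes, which gives the smallest exact permutation p that 3 against 3 libraries allow (0.1, or 0.167 adjusted over the 10 shares).

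As shares of the 6 beta genes, Tubb5 held 32.1%, 33.4% and 31.6% in the WT libraries and 27.7%, 27.1% and 27.6% in the Fyco1-/- ones. Tubb2a held 18.8%, 18.1% and 17.6% in the WT libraries and 22.1%, 23.5% and 22.2% in the Fyco1-/- ones. Tubb6 went from 9.84% ± 1.04 to 11.7% ± 0.925 of the beta total. None of these 3 shares overlapped between genotypes (exact permutation p = 0.1, adjusted p = 0.167). The shares of Tubb4b (32.3% and 31.6% in WT and Fyco1-/-), Tubb2b (6.81% and 6.22%) and Tubb3 (0.551% and 0.426%) overlapped, with exact permutation p of 0.3, 0.3 and 0.6.

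**Figure D3:**
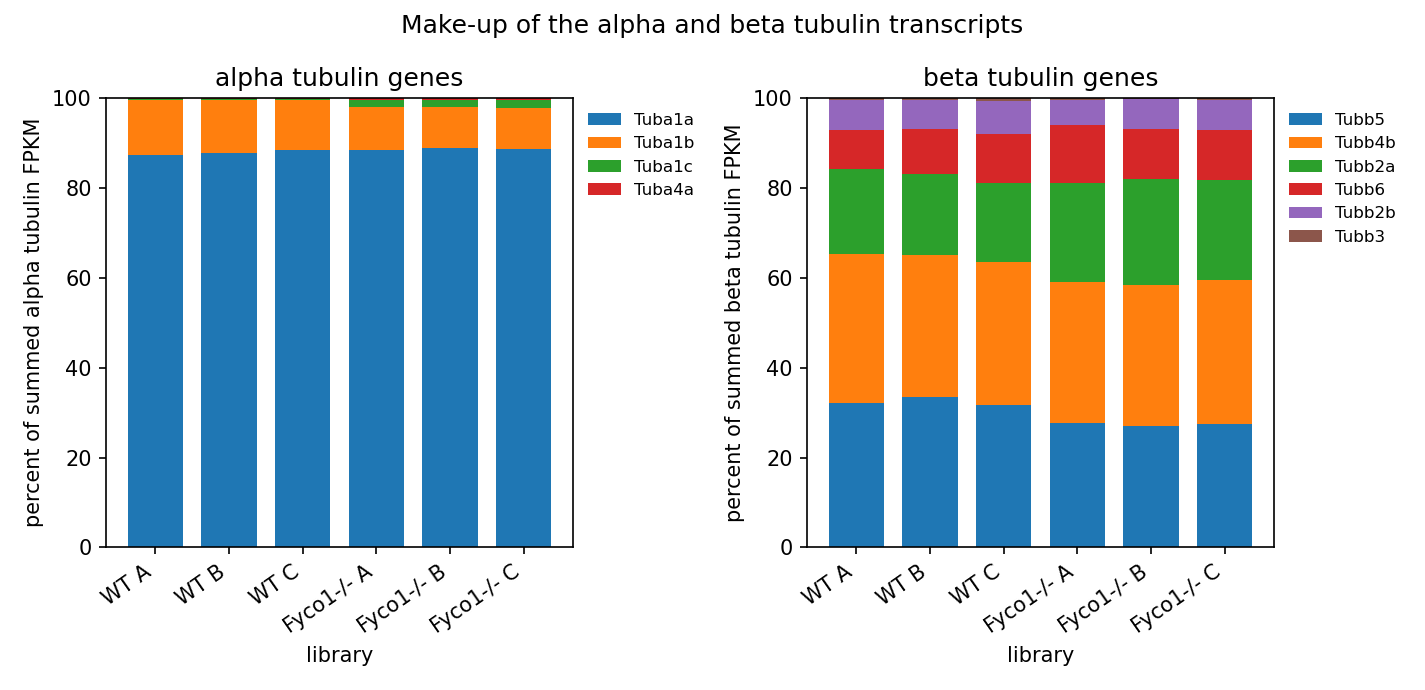
Stacked bars of the percent of summed alpha tubulin FPKM (left) and summed beta tubulin FPKM (right) held by each gene in each library. Tuba1a fills 87.4% to 88.8% of every alpha bar, a band of 1.55% to 1.67% for Tuba1c appears in the Fyco1-/- bars, and in the beta bars Tubb2a is wider and Tubb5 narrower in Fyco1-/-.

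Summed over genes, alpha tubulin measured 799, 852 and 823 FPKM in the WT libraries and 697, 731 and 674 FPKM in the Fyco1-/- ones. The genotypes did not overlap, and the mean was 1.18-fold lower in Fyco1-/- (exact permutation p = 0.1). Beta tubulin summed to 485, 506 and 493 FPKM in the WT libraries and 470, 485 and 461 FPKM in the Fyco1-/- ones, so the lowest WT and the highest Fyco1-/- library were almost equal (means 494.7 ± 10.4 and 471.7 ± 12.3 FPKM, exact permutation p = 0.1). The ratio of the alpha to the beta sum was 1.67 ± 0.0190 in WT and 1.49 ± 0.0215 in Fyco1-/-, with no overlap between the genotypes (exact permutation p = 0.1). When each gene was divided by the part of its transcript that no other gene shares, the difference of the alpha sums went from -124 to -396 FPKM. That of the ratio went from -0.18 to -0.52. Such a division presumes that reads of shared sequence were left uncounted, which is not known. The 10 genes together took 0.173% to 0.182% of all FPKM in WT and 0.149% to 0.162% in Fyco1-/- libraries.

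Some marker genes of cell types also differed between the genotypes. Beside the 3.42% of all tested genes called higher and 5.02% called lower, limma called 4 of 9 lens epithelium markers lower and none higher, and their summed level was 561 to 618 FPKM in WT and 469 to 495 FPKM in Fyco1-/-. Of 11 markers of dividing cells, 2 were called lower (the mitotic kinase genes Aurkb and Bub1), with sums of 24.0 to 34.4 FPKM in WT and 18.1 to 23.2 FPKM in Fyco1-/-. Of 9 tested fibre markers, 2 were called lower, and their sums overlapped between genotypes. Of these lists, 6 epithelium markers, 4 markers of dividing cells and 3 fibre markers passed as lower in the authors' deposited table, and 1 fibre marker (Gja3) passed as higher. The sums of endothelium markers overlapped as well (33.5 to 45.5 FPKM in WT and 32.0 to 37.6 FPKM in Fyco1-/-), and limma called none of 9 (1 with an unadjusted p under 0.05, none in the authors' deposited table). Of the markers of pericytes and mesenchyme (6 tested), macrophages (5), red blood cells (5), pigment cells (2) and muscle (7), limma called only the muscle gene Actn2, as higher in Fyco1-/-, while the other 6 tested muscle genes had negative values (median log2 -1.13 of the 7). WT B stood apart in that list, with Acta1 at 21.7 FPKM against 4.61 and 3.49 FPKM in WT A and WT C, and summed muscle markers ran from 31.9 to 77.3 FPKM in WT and from 42.2 to 51.0 FPKM in Fyco1-/-. The 5 calls among the tubulin genes were kept without WT B. Col1a1 and Col3a1 of the pericyte and mesenchyme list passed as lower in the authors' deposited table. Of the 15 neuron markers in the table, only 1 reached the filter, and their sums were 2.93 to 3.15 FPKM in WT and 1.94 to 2.87 FPKM in Fyco1-/-. No marker of these lists that the table holds was at 0 in all 6 libraries, and the part of cell composition in the falls of Tuba1a, Tuba1b and Tubb5 was not tested.

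Much of the alpha sequence is shared between annotated genes over stretches of 100 bases. Of the 100-base windows in the coding part of the transcript, 81.5% for Tuba1a, 90.9% for Tuba1b and 80.4% for Tuba1c occur unchanged in a transcript of another gene. Over whole transcripts, untranslated ends included, the shares were 65.8%, 73.0% and 53.4%. For Tubb2a, Tubb2b and Tubb4b they were 36.9%, 27.7% and 30.6%, and for Tubb3, Tubb5 and Tubb6 they were 0. How reads that fit several genes were counted is not given in the sources used here, so the levels of the chromosome 15 genes are uncertain and the reads of Tuba1c could be split with those of Tuba1a and Tuba1b. Gm49450, an annotated gene that spans Tuba1b and Tuba1a on the same strand, shares 31.2% of the windows of Tuba1a and is not analysed here.

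Processed pseudogenes, which are copies of a spliced mRNA inserted elsewhere in the genome, were examined after their values were seen. Gm14150 (chromosome 2, 151458956 to 151460309), 98.7% identical to the coding sequence of Tuba1b, 97.6% to that of Tuba1a and 97.5% to that of Tuba1c, measured 0.130, 0.0368 and 0.0424 FPKM in the 3 WT libraries. It measured 3.57, 4.58 and 5.79 FPKM in the Fyco1-/- ones. This copy was therefore near 0 in WT and well above it in every Fyco1-/- library (log2 3.16, SE 0.17, limma adjusted p = 3.76e-06). With a WT mean of 0.0696 FPKM, it passed the filter only through the Fyco1-/- libraries. Since it was also picked by its values, that p is no separate support for the difference. The log2 value depends on the pseudocount and was 4.82 with a pseudocount of 0.1. Gm3756 lies on chromosome 9 (31935446 to 31936800), as does Fyco1, which is far away at 123789500 to 123851899. Also 98.7% identical to Tuba1b, Gm3756 measured 0.394, 0.503 and 0.580 FPKM in the WT libraries and 1.61, 0.862 and 1.95 FPKM in the Fyco1-/- ones. It was called higher (log2 0.95, SE 0.21, adjusted p = 0.0218), but not without WT A, WT B, Fyco1-/- A or Fyco1-/- C (adjusted p = 0.0622 to 0.0777). The call of Gm3756 was also lost without the filter on low values (limma adjusted p = 0.0712), and a stricter filter left the gene untested. Its WT mean of 0.492 FPKM lay under the filter, so Gm3756 too was tested only through its Fyco1-/- values. Gm17383, equally close in sequence, was not called (log2 0.28, adjusted p = 0.465), and Gm5620 and Gm6682 were under the filter. Whether reads of Tuba1c and of these copies come from one another's transcripts was not tested.

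**Figure D4:**
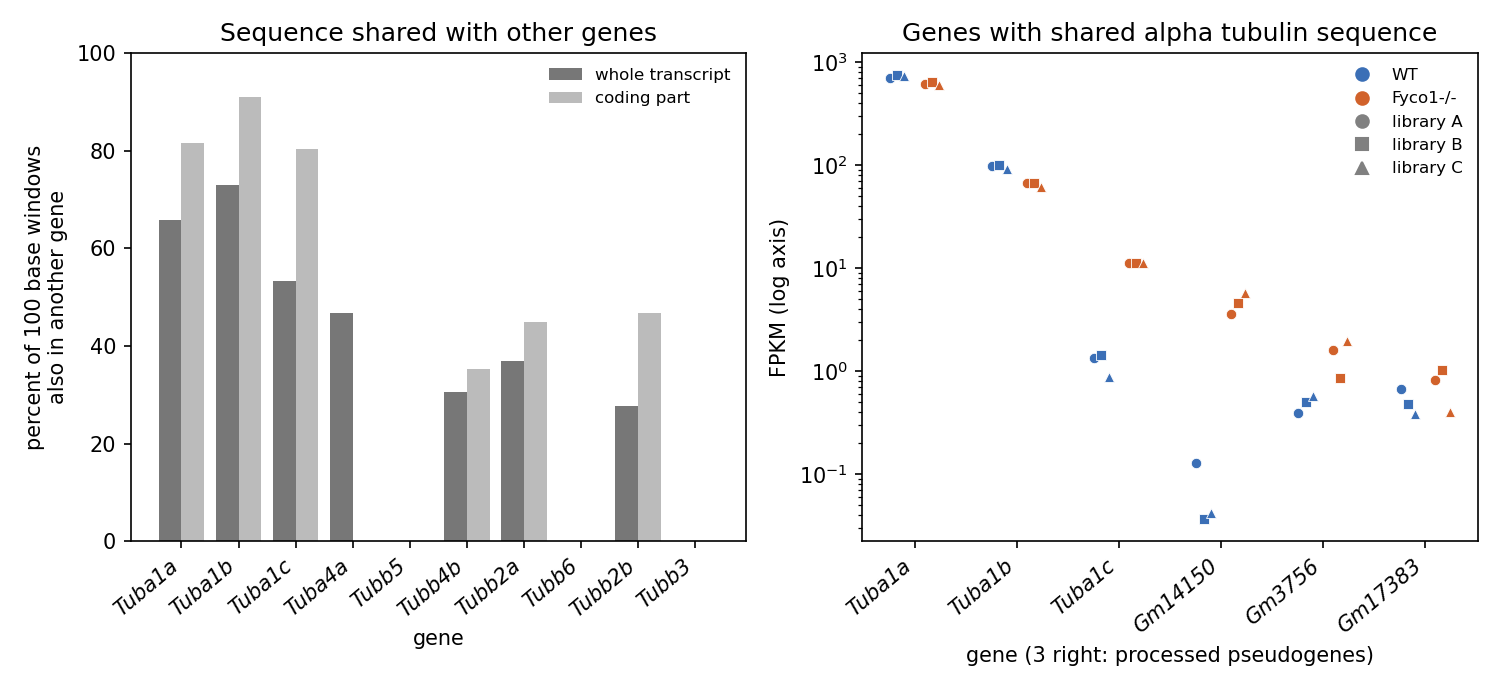
Left, percent of the 100-base windows of each tubulin transcript (dark, whole transcript; light, coding part) that occur in a transcript of another gene, with 0 for Tubb3, Tubb5 and Tubb6. Right, FPKM on a log axis of the chromosome 15 alpha genes and of processed pseudogenes with shared sequence in each library, where Gm14150 goes from 0.0368 to 0.130 FPKM in WT to 3.57 to 5.79 FPKM in Fyco1-/-.

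The chromosome 15 genes share long runs of coding sequence but not of the sequence before their start sites as RefSeq places them (GRCm38.p6). The longest identical run between any pair of them was 281 to 468 bases in the coding sequence. It was 7 to 10 bases in the 250 bases before those start sites. For Tuba1a (98953502 to 98953751) and Tuba1b (98934391 to 98934640) these 250 bases overlap the gene in GENCODE, which reaches 98953703 and 98934565. Those of Tuba1c end just before its GENCODE start (99029891). Runs, motifs and GC content thus compare stretches placed differently against the annotated genes. The 250 bases of Tuba1c are shown because its level stands apart from those of Tuba1a and Tuba1b. The letters of a CCAAT box on the opposite strand (ATTGG) are in capitals.
Tuba1c (chr15:99029641-99029890, plus strand): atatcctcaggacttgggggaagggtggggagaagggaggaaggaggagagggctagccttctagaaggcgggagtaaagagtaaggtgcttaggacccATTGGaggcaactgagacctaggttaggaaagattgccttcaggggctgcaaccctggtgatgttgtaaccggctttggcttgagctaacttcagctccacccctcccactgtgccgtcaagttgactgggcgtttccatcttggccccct
The letters CCAAT were searched on both strands of each promoter, as were those of the GC box and of the TATA box. The GC box was searched as GGGCGG. The TATA box was searched as TATAAA. Matches of different motifs did not overlap. Tuba1c held 1 CCAAT and neither of the others, Tuba1a held 1 CCAAT and 1 GC box, and Tuba1b held 2 GC boxes at a GC content of 75.6%, against 55.6% for Tuba1c and 56.8% for Tuba1a. Of 32851 RefSeq promoters of the same length, 33.8% hold CCAAT, 32.7% a GC box and 12.4% a TATA box. The promoter table matched 8 of the 10 tubulin genes.

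No tested gene around the chromosome 15 cluster was called by limma. Of 17 other genes in the table within 250 kb of the chromosome 15 cluster, 10 were tested (limma), with log2 fold changes of -0.34 to 0.37. Of these, 2 had an unadjusted p under 0.05, and 1 (Kmt2d) passed in the authors' deposited table. Over all tested genes, limma called 8.43%, and 9.37% of genes with an adjusted p passed in the authors' deposited table. With 10 genes tested here and 5 around Tubb2a and Tubb2b, no limma call is near that share. The tested gene that lies between Tuba1a and Tuba1c, 4930578M01Rik, had mean levels of 3.70 (WT) and 4.97 FPKM (Fyco1-/-), with no call (log2 0.37, adjusted p = 0.0653). Tuba1b and Tuba1a are 15.3 kb apart and Tuba1a and Tuba1c 76.2 kb. Around Tubb2a and Tubb2b, which are 48.7 kb apart, 5 of 11 other genes were tested and limma called none (log2 -0.34 to -0.01, 1 with an unadjusted p under 0.05, none in the authors' deposited table).

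**Figure D5:**
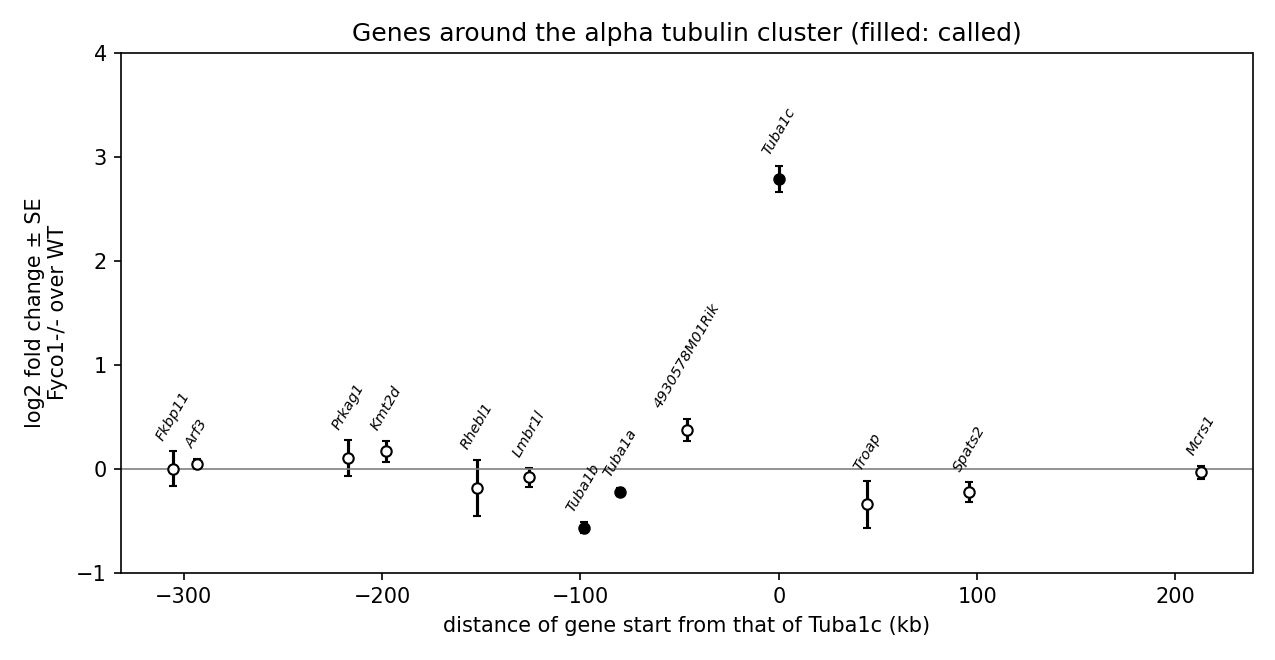
Log2 fold change (Fyco1-/- over WT, with SE) of tested genes around the chromosome 15 alpha tubulin cluster against the distance of each gene's start from that of Tuba1c in kb, filled where called. Tuba1c at 2.79 is far above its neighbours, which lie between -0.57 (Tuba1b) and 0.37.

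Other tubulin genes did not pass the test. Of 10 listed, 8 were in the table and 5 were tested, none was called (limma; 1 had an unadjusted p under 0.05, and none passed in the authors' deposited table), and their median log2 fold change was -0.03. The beta isotype gene Tubb4a went from 12.1 to 10.6 FPKM (log2 -0.18, adjusted p = 0.101), and the gamma tubulin gene Tubg1, whose product seeds microtubules, from 18.5 to 18.2 FPKM. None of 14 genes of the gamma-tubulin ring complex and nucleation was called by limma or passed in the authors' deposited table (1 with an unadjusted limma p under 0.05, median log2 -0.07). None of 3 genes of tubulin mRNA autoregulation was called by limma, had an unadjusted limma p under 0.05 or passed in the authors' deposited table, and Ttc5, whose product recognises nascent tubulin chains, went from 14.2 to 14.6 FPKM. The median log2 fold change of these 3 genes was 0.06. Over all tested genes, limma called 8.43%, and 9.37% of genes with an adjusted p passed in the authors' deposited table.

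Of 22 genes that fold tubulin, limma called 1 higher and none lower (median log2 0.03), a share near the 3.42% of all tested genes called higher. Tbcb, Cct5 and Cct8 passed as higher in the authors' deposited table. The limma call was Cct8, a subunit gene of the chaperonin that folds tubulin and actin, with means of 98.2 ± 3.73 (WT) and 109.9 ± 1.59 FPKM (Fyco1-/-; log2 0.16, limma adjusted p = 0.0349). That call was lost without any single library (adjusted p = 0.0543 to 0.126). Over all 16 alternative settings, the call of Cct8 was kept in 6. Of 18 tubulin-modifying enzyme genes, limma called 1 higher and none lower (median log2 -0.09), also a share near that of all tested genes, and the same gene alone passed in the authors' deposited table. It was Sirt2, a deacetylase of alpha tubulin among other substrates, which rose from 50.8 ± 0.925 to 61.5 ± 1.64 FPKM (log2 0.27, SE 0.04, adjusted p = 0.00339).

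Of 39 genes of proteins that bind the microtubule lattice or its ends, limma called 1 higher and 6 lower, beside the 3.42% and 5.02% of all tested genes, and the median log2 fold change was -0.09. The balance was different in the authors' deposited table, where 4 passed as higher (Map1a, Map1b, Map2 and Map4) and 4 as lower (Map6d1, Map7, Map7d2 and Mapre2). Map7, whose product recruits the motor kinesin-1 to microtubules, measured 48.5, 51.7 and 49.1 FPKM in the WT libraries and 31.8, 37.0 and 35.9 FPKM in the Fyco1-/- ones. All Fyco1-/- values of Map7 lay below those of WT (log2 -0.51, SE 0.06, limma adjusted p = 0.000744). Map1a, which encodes a protein that binds along microtubules, rose from 1.35 ± 0.0956 to 2.47 ± 0.134 FPKM (log2 0.68, adjusted p = 0.00374). Map6d1, which encodes a microtubule-stabilising protein, fell from 2.46 ± 0.172 to 1.37 ± 0.282 FPKM (log2 -0.67, adjusted p = 0.0128). The calls of Map7, Map1a and Map6d1 were kept in all 16 alternative settings. The other 4 called lower were Map7d2 (log2 -0.42), Mapre2 (log2 -0.33), Ckap5 (log2 -0.22) and Slain1 (log2 -0.37). Each of them lost its call without some single libraries: Ckap5 without any but Fyco1-/- C, Map7d2 likewise, Slain1 without any but WT C and Fyco1-/- A, and Mapre2 without WT B or Fyco1-/- C. Over all settings their adjusted p reached 0.137, 0.0979, 0.0887 and 0.0579 in that order. Their calls were kept in 8, 10, 11 and 14 of the 16 alternative settings, in the same order.

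Of 14 genes of proteins that destabilise or sever microtubules, limma called none higher and 2 lower (median log2 -0.16). Over all tested genes, 3.42% were called higher and 5.02% lower. In the authors' deposited table only Fign, a severing enzyme gene, passed, as higher, and neither of those 2 did. Stmn4, of the stathmin family that binds free tubulin, fell from 2.24 ± 0.324 to 1.40 ± 0.0979 FPKM (log2 -0.53, limma adjusted p = 0.0283). Katnal2, which encodes a katanin-like subunit, fell from 10.5 ± 1.06 to 8.29 ± 0.354 FPKM (log2 -0.32, adjusted p = 0.0394). Both lost their calls without any single library other than WT B, with adjusted p of 0.0521 to 0.102 for Stmn4 and 0.0513 to 0.127 for Katnal2. Some other filters and scalings lost them too. Over all 16 alternative settings, the call was kept in 9 for Stmn4 and in 8 for Katnal2.

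By likeness of pattern over the 6 libraries, the 3 tested genes nearest to Tuba1a, the most abundant alpha gene, were Rhoc (Pearson r = 0.9947), Esm1 (r = 0.9946) and A330021E22Rik (r = 0.9931). Nearest to Tubb4b, which had the highest mean of the beta genes over all 6 libraries, were Cd1d1 (r = 0.9971), Lima1 (r = 0.9965) and Rsph3a (r = 0.9964). These are descriptions on log2(FPKM + 0.5): the 6 points share the 2 genotypes, and these genes were picked from 12001 for their closeness.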

How the data were processed

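RNA-seq values of 6 libraries (3 WT, 3 Fyco1-/-) were taken from a deposited table. Per the labels, libraries were made from total RNA with a NEB Next Ultra kit and sequenced as read pairs. The submitters' processing notes name STAR 2.5, HTSeq 0.6.1, DESeq2 and the build GRCm38. Per the labels the authors scaled counts per gene to FPKM; the annotation, strand setting and scaling total are not given in the sources used here. The authors also deposited log2 fold changes, p-values and adjusted p-values, used only where named.

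Genes with a mean of at least 0.5 FPKM (12001 of 22298) were tested with R 4.3.3 and limma 3.58.1, applied to log2(FPKM + 0.5) with genotype alone in the model and with robust, trended moderation; a two-sided Benjamini-Hochberg adjusted p under 0.05 made a call. These log2 fold changes understate the change of low genes, and fold values are ratios of mean FPKM. Shares and sums were compared by exact two-sided permutation tests, which cannot give p under 0.1. The scripts were tested on simulated data with 200 changed genes per run.

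Depth was estimated with exon lengths of GENCODE release M21, to which 93.3% of symbols matched 1 gene. Only 51.1% of the 32760 values standing for 1 to 20 reads came within 0.05 of a whole read. Chance gives 10% at a depth fixed beforehand, but each depth was chosen to make this share high. No counts were therefore recovered and no counting intervals are given. Libraries with the same letter did not deviate together (r = -0.03 for A, 0.03 for B and 0.03 for C), so letters were not used as pairs.

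The tubulin genes and lists were chosen with earlier results of these data known. Named are the 10 genes, up to 3 called members per list by p (or its most abundant member), genes of similar pattern, and some chosen after their values were seen, among them the pseudogenes, Stk16, 4930578M01Rik, Map7d2, Mapre2, Ckap5 and Slain1. Alternatives were other pseudocounts, filters, moderation and scalings, the replicate block and leaving out each library. Sequences came from GENCODE transcripts and, for promoters, RefSeq; the tail-coding ends of the alpha genes are not reported here.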

Additional observations from a re-analysis of the deposited data

How the results depend on the processing

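The count of tubulin genes called higher was 2 (Tuba1c and Tubb2a) under all 16 alternatives. The count called lower was 3 in 14 of them, 2 with median-of-ratios scaling (without Tuba1a, adjusted p = 0.0611) and 4 with quantile normalization (with Tubb4b, adjusted p = 0.0309). With the replicate block, which the data do not bear out as a pairing, 2 were called higher and 3 lower. Leaving out each library in turn left these counts at 2 and 3. No log2 fold change of the 10 genes reversed, with ranges of 2.47 to 3.13 for Tuba1c and -0.53 to -0.14 for Tubb3 as examples. Scaling moves the balance of all calls, of which 40.5% were higher, against 56.5% with median-of-ratios scaling and 48.2% with quantile normalization. Dividing each gene by the share of its 100-base windows found in no other gene's transcript, a setting chosen after seeing the data, moved the difference in summed alpha FPKM to -396, in summed alpha and beta FPKM to -416 (from -147) and in the alpha to beta ratio to -0.52. The same setting moved the share differences of Tuba1a to 1.72, of Tuba1c to 1.05 and of Tuba4a to 0.107 percentage points. This was computed against transcripts and not against the genome. It also presumes that reads of shared windows were left uncounted, which is not known. For Tuba4a the shared windows are those with Stk16 on the opposite strand. Low levels of Tuba1c in WT, Tuba4a and Tubb3 limit their precision.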
